A study of Mus musculus with 12 samples.

Results

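The 60 genes described here encode the machinery of G2 and mitosis, and were taken as a named list of mRNAs that normally peak in those phases; the rule itself uses no measured value, but the list was drawn up with earlier results of these data known. They were located by Ensembl identifier, with symbols from GENCODE M21, and all 60 were found among 51826 gene rows. With a filter on low counts, 59 of them stood among the 10477 genes tested. The exception was Cks2, a small CDK-binding subunit, which had 0.315 to 1.98 CPM (read counts scaled by library size) in the 12 libraries and is not tested. Pimreg, listed under its older symbol Fam64a, is included. RNA came from 19DN, a reporter-negative derivative of the mouse B lymphoma line 19PP, in 6 groups of 2 libraries. The parent lymphoma grew from Cγ1-Cre; Myc/P110*flSTOP marrow in a Rag2-/-γC-/- host, which makes no lymphocytes of its own but keeps myeloid cells; Cγ1-Cre acts in B cells activated to switch to IgG1, so every library carries the Myc and P110* transgenes. The ribosomal protein RPL12 was wild type (WT) or carried S38A or S38D, an alanine or an aspartate in place of serine 38, and aspartate is often used to mimic a phosphorylated serine. Mitotic libraries followed 8 h in 100 ng/mL nocodazole, which depolymerises microtubules, and 10 min after its removal, while the other libraries are titled asynchronous. The state is taken from the titles, since the treatment text given for the asynchronous libraries is the same and also describes nocodazole; if those cells had received it, the comparison of states would not be one of treated with untreated cells. Cycloheximide at 100 µg/mL, a blocker of translation elongation, was present at every harvest. Whether a line is 1 clone, and whether the libraries of a group came from separate cultures, is not given in the sources used here, so p-values measure only the spread between these libraries, which may be technical.

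Entry into mitosis is driven by CDK1 bound to B-type cyclins, which the CDC25 phosphatases activate. Polo-like and Aurora kinases then build the spindle, the checkpoint holds the anaphase-promoting complex (APC/C) in check until kinetochores are attached, and APC/C with CDC20 degrades securin and cyclin B. The mRNAs of this machinery are repressed in G1 by complexes built on the MuvB core and are switched on late in the cycle by MuvB with B-MYB and then FOXM1; many of their promoters hold a cell cycle genes homology region, with the letters TTTGAA or TTCGAA, and CCAAT boxes bound by NF-Y. Nocodazole keeps the checkpoint active and cells in prometaphase.

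Gene reads numbered 3432875 to 6587997 per library (median 5548100), and spike-in reads amounted to 2.29 to 3.60% of the number of gene reads. B cell markers were present, with 9 of 10 passing the filter and a summed level of 2613 to 3676 CPM in asynchronous and 1580 to 2361 CPM in mitotic libraries. Of the T and NK cell markers 7 of 11, including Cd3e, Cd4 and Cd8a, had no read in any library, and the list summed to 2.83 to 7.42 CPM. Of the myeloid markers 3 of 8, Itgam, Cd14 and Elane, had none, and the list summed to 0 to 2.72 CPM. The list for stromal, epithelial and erythroid cells had 5 of 11 at 0, including Hba-a1, Hba-a2, Krt8 and Krt18. Its sum of 255 to 1277 CPM was nearly all Hbb-bt, a beta-globin gene. Rpl12 itself, at chr2:32961559-32965345, had 28.3 to 44.7 CPM in asynchronous and 43.3 to 74.4 CPM in mitotic libraries, and a gene-level count cannot check a codon change. Replicate 1 of S38D asynchronous and replicate 1 of WT mitotic stand apart from their replicates, with 6.88% and 2.92% of 7062 genes at 10 CPM or more lying at least 2-fold apart, against 0.0142 to 0.467% in the other groups.

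Promoters of the listed genes are shown first, because these genes are known for shared promoter elements. Sequences are RefSeq's, on GRCm38.p6, and span 250 bases before to 50 after each gene's start; 49 of the 60 genes matched. Those with no entry in the table used are Aurkb, Ccna2, Cdc25c, Cdca2, Foxm1, Incenp, Kif20a, Pimreg, Smc4, Spc24 and Tpx2. Both strands were searched, matches may overlap, and a match is a description of letters and not a binding site. TTTGAA or TTCGAA occurred in 36 of the 49 promoters (73.5%), against 19.2% of all 32851 promoters of the same length. Within 50 bases of the start it occurred in 32 of the 49 (65.3%), against 5.31% of all promoters. CCAAT occurred in 37 of the 49 (75.5%), against 37.4%, and 26 of the 49 (53.1%) held at least 2 copies, against 11.7%. The E2F-type letters TTTCCCGC occurred in 0 of the 49 and in 1.07% of all promoters.

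The 250 bases before the start are printed for 4 genes whose values are given below: the mitotic cyclin Ccnb1 (chr13:100786487-100786736, minus strand), its kinase Cdk1 (chr10:69352913-69353162, minus strand), the chromosome-untangling enzyme Top2a (chr11:99024190-99024439, minus strand) and the APC/C-partner enzyme Ube2c (chr2:164769679-164769928, plus strand). Each reads 5′ to 3′ towards its gene, and capitals mark TTTGAA or TTCGAA, and CCAAT, on either strand, so that TTCAAA and ATTGG are the same letters read from the other strand.
Ccnb1: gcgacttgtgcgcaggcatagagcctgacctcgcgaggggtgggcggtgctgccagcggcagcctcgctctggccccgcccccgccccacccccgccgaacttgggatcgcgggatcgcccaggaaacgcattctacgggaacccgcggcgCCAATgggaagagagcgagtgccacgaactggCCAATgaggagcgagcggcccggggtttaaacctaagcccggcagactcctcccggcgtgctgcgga
Cdk1: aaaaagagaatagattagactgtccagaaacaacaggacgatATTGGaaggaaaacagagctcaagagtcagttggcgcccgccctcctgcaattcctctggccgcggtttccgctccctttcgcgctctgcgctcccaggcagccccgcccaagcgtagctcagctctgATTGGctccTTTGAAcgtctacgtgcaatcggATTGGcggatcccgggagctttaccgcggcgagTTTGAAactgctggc
Top2a: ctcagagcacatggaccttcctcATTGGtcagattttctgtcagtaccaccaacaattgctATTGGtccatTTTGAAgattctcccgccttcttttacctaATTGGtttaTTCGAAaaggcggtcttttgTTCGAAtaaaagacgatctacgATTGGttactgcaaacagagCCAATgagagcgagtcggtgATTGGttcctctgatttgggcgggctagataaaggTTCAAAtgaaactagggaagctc
Ube2c: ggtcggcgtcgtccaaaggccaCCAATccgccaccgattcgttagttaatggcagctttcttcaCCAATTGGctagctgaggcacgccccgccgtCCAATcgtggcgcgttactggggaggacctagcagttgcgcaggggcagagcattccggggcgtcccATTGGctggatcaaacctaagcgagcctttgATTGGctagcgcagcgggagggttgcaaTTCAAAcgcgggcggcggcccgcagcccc
Top2a and Ube2c held 6 CCAAT copies each in this stretch, Cdk1 held 3 and Ccnb1 held 2. TTTGAA or TTCGAA was found 4 times before the start of Top2a, 2 times for Cdk1 and 1 time for Ube2c, and Ccnb1 had 0 copies. In Ube2c, 2 of the CCAAT copies overlap as CCAATTGG.

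Close to the start, the same element is shown in 30-base windows for 8 genes that fell in mitotic libraries and 3 that were not called (Cdca3, Bub1 and Hjurp), on GRCm38.p6. Capitals mark the element, and its position counts from the start as 1. The windows are Ccnb2 at chr9:70421533-70421562, Aurka at chr2:172370521-172370550, Cenpf at chr1:189688067-189688096, Spc25 at chr2:69206172-69206201, Kif23 at chr9:61946780-61946809, Racgap1 at chr15:99651634-99651663, Bub1 at chr2:127831828-127831857 and Hjurp at chr1:88277543-88277572 on the minus strand, and Plk1 at chr7:122159453-122159482, Kif4 at chrX:100626072-100626101 and Cdca3 at chr6:124830194-124830223 on the plus strand.
Ccnb2: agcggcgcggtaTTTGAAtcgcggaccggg
Aurka: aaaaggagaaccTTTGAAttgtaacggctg
Plk1: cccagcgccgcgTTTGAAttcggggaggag
Cenpf: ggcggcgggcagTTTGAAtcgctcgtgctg
Spc25: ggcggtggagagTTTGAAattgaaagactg
Kif4: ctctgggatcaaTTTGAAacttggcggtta
Kif23: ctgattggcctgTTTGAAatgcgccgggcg
Racgap1: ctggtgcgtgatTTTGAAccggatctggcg
Cdca3: cgtggagggaagTTTGAAactccgggcttt
Bub1: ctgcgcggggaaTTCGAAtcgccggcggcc
Hjurp: tgcgtaaatactTTTGAAagaccctattag
The element lay between positions 3 and 33 in all 11 windows, and Bub1 carries the TTCGAA form. Anywhere in the 300 bases, TTTGAA or TTCGAA was held by 22 of the 30 promoters of genes that fell (73.3%). It was held by 14 of the 19 others (73.7%), which include the untested Cks2.

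Summed over the 60 genes, the level was lower in mitotic than in asynchronous libraries. The sum was 11583 and 12056 CPM in WT, 16149 and 15677 in S38A and 14052 and 13573 in S38D asynchronous cells. In mitotic cells it was 9726 and 9748 CPM in WT, 10940 and 10979 in S38A and 9707 and 9614 in S38D. The states did not overlap, and S38A had the highest sum within each state. Scaled to the spike-in RNA instead, the states also stood apart, at 12545 to 16760 against 8297 to 10572, but S38A was then not above WT in asynchronous cells (14566 and 15341, against 13818 and 16760). Cdc25b, Birc5 and Arl6ip1 took the most reads; without them the sums were 7323 to 10185 CPM in asynchronous and 6397 to 7818 CPM in mitotic libraries, which overlap. Fewer cells with an mRNA and less of it per cell cannot be told apart in bulk libraries, and mitosis cannot be told apart from nocodazole, since every mitotic library had the drug.

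**Figure D1:**
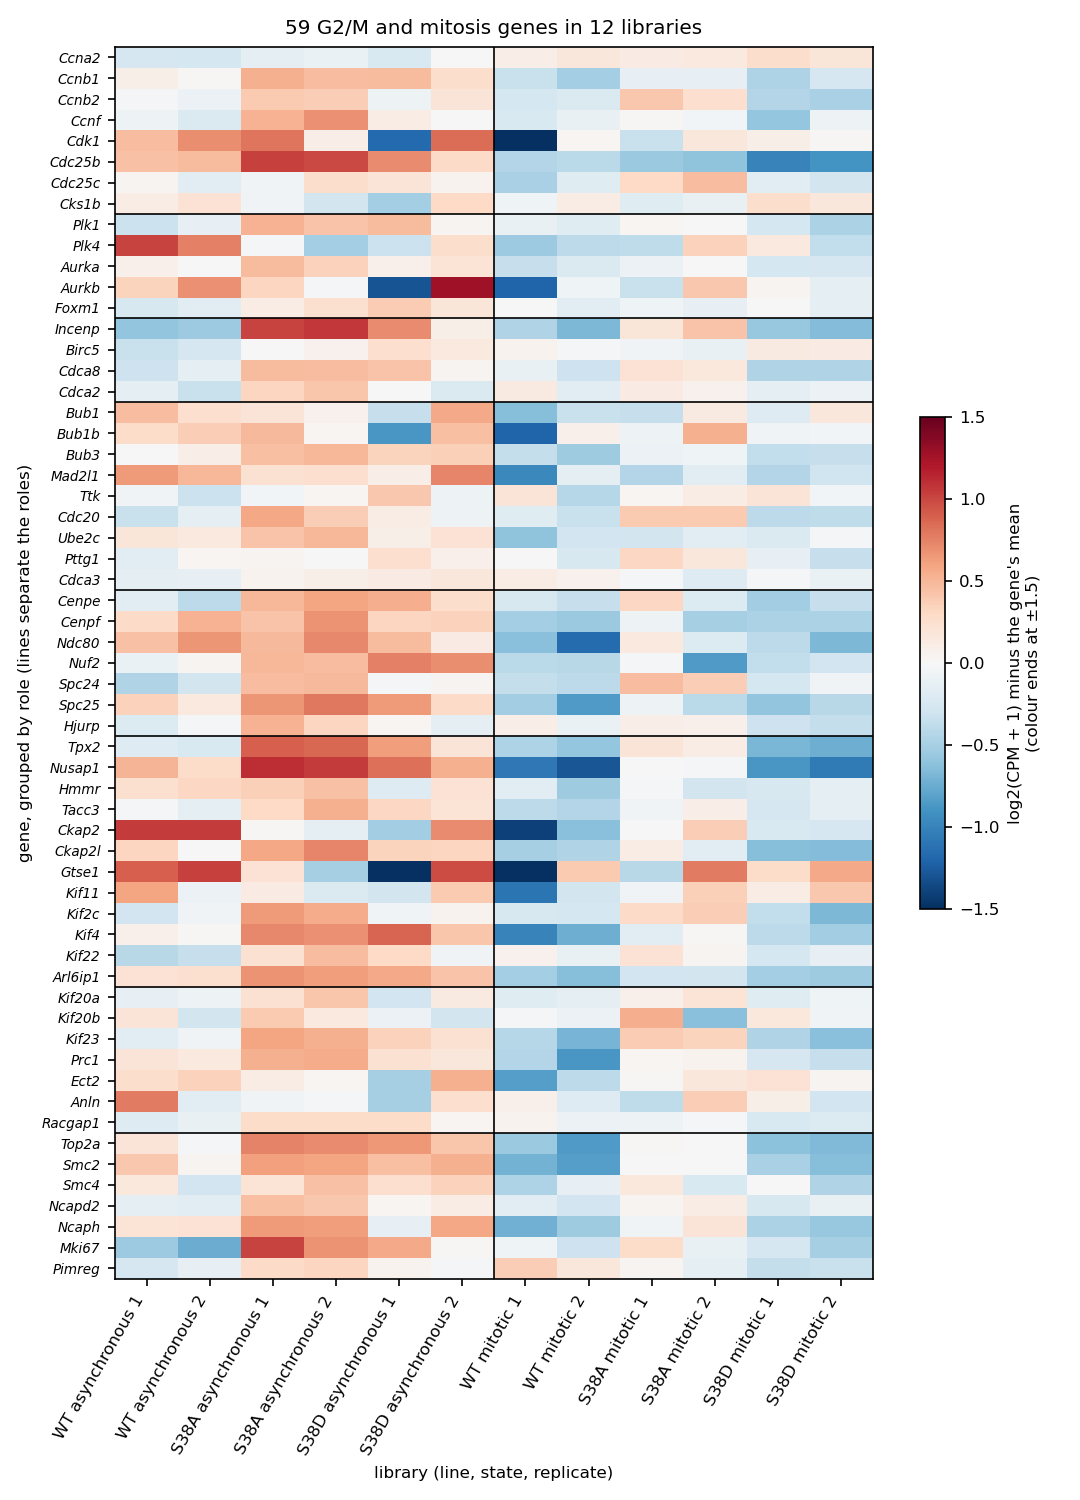
Each row is a gene, grouped by role, and each column a library; colour is log2(CPM + 1) minus the gene's mean over the 12 libraries. Blue (low) cells fill most of the mitotic columns on the right, S38A asynchronous libraries are the reddest, and Cdk1, Aurkb and Gtse1 are dark blue in S38D asynchronous 1 and WT mitotic 1.

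Of the 59 genes tested, 33 fell and 1 rose in mitotic against asynchronous libraries (mean of the 3 lines), against a background of 21.6% of all genes tested that fell and 20.5% that rose. The median change of the 59 genes was -0.38 on the log2 scale, that of all genes was -0.02, and 55 of the 59 had a negative value. For 13 genes every one of the 6 mitotic libraries lay below all 6 asynchronous libraries, which held for 4.84% of all genes: Ccnb1, Cdc25b, Aurka, Bub3, Mad2l1, Ube2c, Cenpf, Spc25, Nusap1, Kif4, Arl6ip1, Prc1 and Smc2. The reverse held for Ccna2 alone among the members, and for 5.79% of all genes. Scaling to the spike-in RNA moved the median of all genes to -0.20 and that of the members to -0.55, with 43 members lower and 0 higher. Fold changes below are fitted log2 values ± SE from 6 libraries against 6, and adjusted p-values are those of edgeR's quasi-likelihood test, Benjamini-Hochberg over all genes tested.

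Among cyclins, CDK1 and its activators, 4 of the 8 tested fell and 1 rose. Ccnb1, the B-type cyclin whose destruction ends mitosis, had 79.4 to 113 CPM (median 101) in asynchronous and 54.4 to 71.6 CPM (median 63.4) in mitotic libraries, a change of -0.62 ± 0.07 (adjusted p = 6.55e-06). Its ranges did not overlap. Cdc25b, a phosphatase that activates CDK1 at entry, had 1731 to 2888 CPM (median 2151) against 708 to 1076 CPM (median 949), a change of -1.31 ± 0.07 (adjusted p = 1.21e-09). Every mitotic value of Cdc25b lay far under the lowest asynchronous one, in all 3 lines. Ccna2, the S and G2 cyclin that is degraded before cyclin B, was the member that rose: 167 to 202 CPM (median 177) against 215 to 241 CPM (median 224), a change of 0.33 ± 0.06 (adjusted p = 0.000519). With spike-in scaling its change was 0.15 and was not called (adjusted p = 0.241), and in WT it turned to -0.046 (adjusted p = 0.849). Ccnb2 (-0.26) and Ccnf (-0.34), a cyclin that acts as a ubiquitin ligase subunit, fell less. Cdk1, the kinase itself, had 187 to 751 CPM (median 629) against 128 to 472 CPM (median 426); its change of -0.61 ± 0.45 was not called (adjusted p = 0.321) and its ranges overlapped broadly. The phosphatase Cdc25c (-0.13) and the CDK-binding subunit Cks1b (0.05) were not called either; Cks1b shares 95.1% of its last bases with Cks1brt, so that reads could fall to either gene.

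The mitotic kinases and FOXM1 differed among themselves, with 2 of 5 called, both lower. Aurka, the centrosome Aurora kinase, had 252 to 348 CPM (median 278) against 197 to 249 CPM (median 213), a change of -0.40 ± 0.06 (adjusted p = 7.08e-05), with no overlap. Plk1, the main polo-like kinase, had 714 to 1282 CPM (median 1066) against 646 to 916 CPM (median 810.0), a change of -0.34 ± 0.08 (adjusted p = 0.00171), and its ranges overlapped. Aurkb, the kinase of the chromosomal passenger complex, ranged more widely within a state than between states, at 5.57 to 37.8 CPM (median 19.3) against 6.04 to 20.4 CPM (median 14.04) and a change of -0.59 ± 0.49 (adjusted p = 0.388). Foxm1, the transcription factor of these genes, had 127 to 195 CPM (median 166) against 134 to 151 CPM (median 141); its change of -0.16 ± 0.07 missed the threshold (adjusted p = 0.058) and was called with spike-in scaling, at -0.34 (adjusted p = 0.00567). Plk4, which starts centriole copying, had -0.43 (adjusted p = 0.0716).

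The chromosomal passenger genes gave 2 calls of 4: Incenp (-0.59), the scaffold of the complex, and Cdca8 (-0.32), borealin, fell. Birc5 (survivin), another targeting subunit of the complex, stood at 0.04 (adjusted p = 0.609), and Cdca2, which brings a phosphatase to anaphase chromosomes, at -0.02 (adjusted p = 0.868). Among checkpoint and APC/C genes 3 of 9 fell. Ube2c, the E2 enzyme of APC/C, had 346 to 459 CPM (median 373) against 213 to 319 CPM (median 273), a change of -0.52 ± 0.07 (adjusted p = 1.62e-05), and every mitotic library was below every asynchronous one. The checkpoint proteins Bub3 (-0.58) and Mad2l1 (-0.83) fell with no overlap. The activator Cdc20 (-0.17), securin Pttg1 (-0.08), the checkpoint kinases Bub1 (-0.49), Bub1b (-0.25) and Ttk (0.02), and the mitotic entry factor Cdca3 (-0.06) were not called. Cdc20 shares 53 bases of its 3′ end with Elovl1.

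Kinetochore, spindle and chromosome structure genes had the largest shares of calls. Of the 7 kinetochore and centromere genes 5 fell: Ndc80 (-1.18), Nuf2 (-0.85) and Spc25 (-0.97) of the microtubule-binding NDC80 complex, Cenpf and the motor Cenpe (-0.48). The NDC80 subunit Spc24 (-0.08) and the CENP-A chaperone Hjurp (-0.17) were not called, so the 4 subunits of the complex did not all pass the test. Spc25 had 58.95 to 92.6 CPM (median 75.6) against 28.96 to 50.3 CPM (median 38.2) (adjusted p = 9.69e-07), with no overlap. Ndc80 had 5.13 to 8.28 CPM (median 6.89) against 1.54 to 5.24 CPM (median 2.97), with a change of -1.18 ± 0.20 (adjusted p = 0.000151), and 184 of its last 300 bases match, at 95.1 to 96.2% identity, each of 2 pseudogenes (Gm47120 and 2700099C18Rik). Cenpf, an outer kinetochore protein that accumulates in G2, had 22.5 to 29.7 CPM (median 24.1) against 12.1 to 17.2 CPM (median 12.7), a change of -0.91 ± 0.11 (adjusted p = 8.97e-06); a repeat in its 3′ end recurs in many other genes. Of the 12 spindle genes and kinesins 9 fell and 0 rose.

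Nusap1, which bundles microtubules near chromosomes, had the largest fall of the 59 genes: 94.4 to 169 CPM (median 126) in asynchronous and 31.4 to 77.6 CPM (median 39.5) in mitotic libraries, a change of -1.46 ± 0.08 (adjusted p = 1.62e-09). Kif4, a chromosome-bound kinesin, had 11.1 to 20.7 CPM (median 16.5) against 4.91 to 10.99 CPM (median 7.64), a change of -1.03 ± 0.13 (adjusted p = 1.36e-05). Arl6ip1, an endoplasmic reticulum membrane protein, had 1097 to 1505 CPM (median 1334) against 602 to 780.5 CPM (median 659.9), a change of -0.92 ± 0.06 (adjusted p = 5.69e-09). In all 3 of these genes the states did not overlap. The Aurora-A activator Tpx2 (-0.74), Ckap2 (-0.79), Ckap2l (-0.78), Hmmr (-0.49), the spindle protein Tacc3 (-0.40) and the depolymerising kinesin Kif2c (-0.30) fell as well. The kinesins Kif11 (-0.22), which pushes the poles apart, and Kif22 (-0.06), which moves chromosome arms, and the p53 regulator Gtse1 (-0.26) were not called. Ckap2l overlaps an antisense transcript, and whether counting used strand is not given in the sources used here.

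Of 7 cytokinesis genes 3 fell: the midzone bundler Prc1 (-0.62), its partner kinesin Kif23 (-0.50) and Racgap1 (-0.19), which with Kif23 forms centralspindlin. Kif20a (-0.10), Kif20b (-0.02), the RhoA exchange factor Ect2 (-0.30) and anillin, Anln (-0.18), were not called. Prc1 and Kif20a each share all 300 last bases with an overlapping neighbour, Rccd1 and Cdc23. Of 7 chromosome structure genes 5 fell: Top2a, the condensin core ATPases Smc2 and Smc4 (-0.38), and the condensin I subunits Ncapd2 (-0.22) and Ncaph (-0.76). Top2a had 203 to 346 CPM (median 301) against 114 to 209 CPM (median 137), a change of -0.90 ± 0.07 (adjusted p = 9.16e-08). Smc2 had 28.1 to 42.2 CPM (median 38.7) against 14.9 to 27.1 CPM (median 18.1), a change of -0.93 ± 0.10 (adjusted p = 1.27e-06). The ranges of Top2a overlapped slightly and those of Smc2 did not. Mki67, the chromosome-coating antigen Ki-67, had 3.97 to 15.8 CPM (median 9.36) against 4.89 to 9.04 CPM (median 6.36); its change of -0.36 ± 0.17 was not called (adjusted p = 0.103) and was called with spike-in scaling, at -0.52 (adjusted p = 0.0217). Pimreg, a mitotic regulator of the metaphase-anaphase transition, stood at -0.09 (adjusted p = 0.333).

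Members fell in each of the 3 lines. In WT 22 members fell and 3 rose (background 12.7% and 13.4%), in S38A 22 fell and 0 rose (8.06% and 6.72%), and in S38D 31 fell and 1 rose (14.8% and 11.6%). The members' medians were -0.34, -0.35 and -0.40. A set of 13 genes was called lower in all 3 lines, 22.0% of the 59 against 3.87% of all genes tested: Ccnb1, Cdc25b, Aurka, Bub3, Cenpf, Spc25, Nusap1, Ckap2l, Kif4, Arl6ip1, Prc1, Top2a and Smc2. A further 10 were lower in 2 lines, 16 in 1 and 20 in none. Values were negative in all 3 lines for 34 genes (57.6%, against 27.4% of all genes). Across the 59 genes, the changes in S38A and S38D had a Pearson r of 0.78, while r was 0.11 for WT and S38A and 0.26 for WT and S38D; over all genes tested these were 0.71, 0.47 and 0.53. These are correlations across genes, which are not replicates, and the 3 changes come from separate libraries of 1 study. The values for WT include WT mitotic replicate 1, in which Cdk1, Aurkb, Bub1b and Gtse1 were at least 2-fold below replicate 2.

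Ckap2, a microtubule-associated protein, had 32.3 and 32.3 CPM in WT asynchronous and 5.10 and 9.44 in WT mitotic libraries, a change of -2.17 ± 0.41 (adjusted p = 0.00468). In S38A its change was 0.27 ± 0.38 and in S38D -0.49 ± 0.39, neither called. Plk4 likewise had 19.2 and 15.9 CPM against 5.86 and 6.58 in WT, a change of -1.5 ± 0.32 (adjusted p = 0.00327), beside 0.30 in S38A and -0.10 in S38D. For both genes the WT asynchronous libraries were the highest of all 12. Incenp went the other way: it had 138 and 143 CPM in asynchronous and 152 and 131 in mitotic WT libraries, a change of 0.01 ± 0.17, but fell in S38D (-1.05, adjusted p = 0.000441) and in S38A (-0.73, adjusted p = 0.00843). Pimreg and Birc5 rose in WT, at 0.46 ± 0.12 (adjusted p = 0.0122) and 0.31 ± 0.10 (adjusted p = 0.0285), and Ccna2 rose in WT and S38D. The Ccna2 call was lost in WT without either WT asynchronous library or WT mitotic replicate 2 (adjusted p from 0.0672 to 0.0906), and in S38D without either S38D mitotic library, S38D asynchronous replicate 1 or WT asynchronous replicate 1 (adjusted p from 0.0539 to 0.191). Pimreg fell in S38D, at -0.37 ± 0.12 (adjusted p = 0.0369), the 1 member with calls in opposite directions. The WT call of Pimreg was lost with spike-in scaling (0.014, adjusted p = 0.953) and without replicate 1 of WT asynchronous (adjusted p = 0.134) or WT mitotic cells (adjusted p = 0.109), and its S38D call without 6 of the 12 libraries: both S38D mitotic libraries, both S38A asynchronous libraries, S38D asynchronous replicate 1 and WT asynchronous replicate 2 (adjusted p from 0.0516 to 0.135). Birc5 turned to -0.14 with spike-in scaling (adjusted p = 0.436), and its call was lost without any 1 of the 4 WT libraries (adjusted p from 0.0652 to 0.208). The S38A call of Incenp was lost without S38A asynchronous replicate 2 (adjusted p = 0.0675) or S38A mitotic replicate 1 (adjusted p = 0.0891).

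With 2 libraries a group, these counts rest on few libraries. The WT count of 25 was 13 without WT asynchronous replicate 1 and 15 without WT mitotic replicate 1. For S38A, 22 calls became 13 and 10 without its asynchronous replicates 1 and 2, and 12 and 11 without its mitotic replicates 1 and 2. The S38D count of 32 was 21 and 19 without its mitotic replicates 1 and 2. A library left alone in its group was assumed to vary like the other groups.

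**Figure D2:**
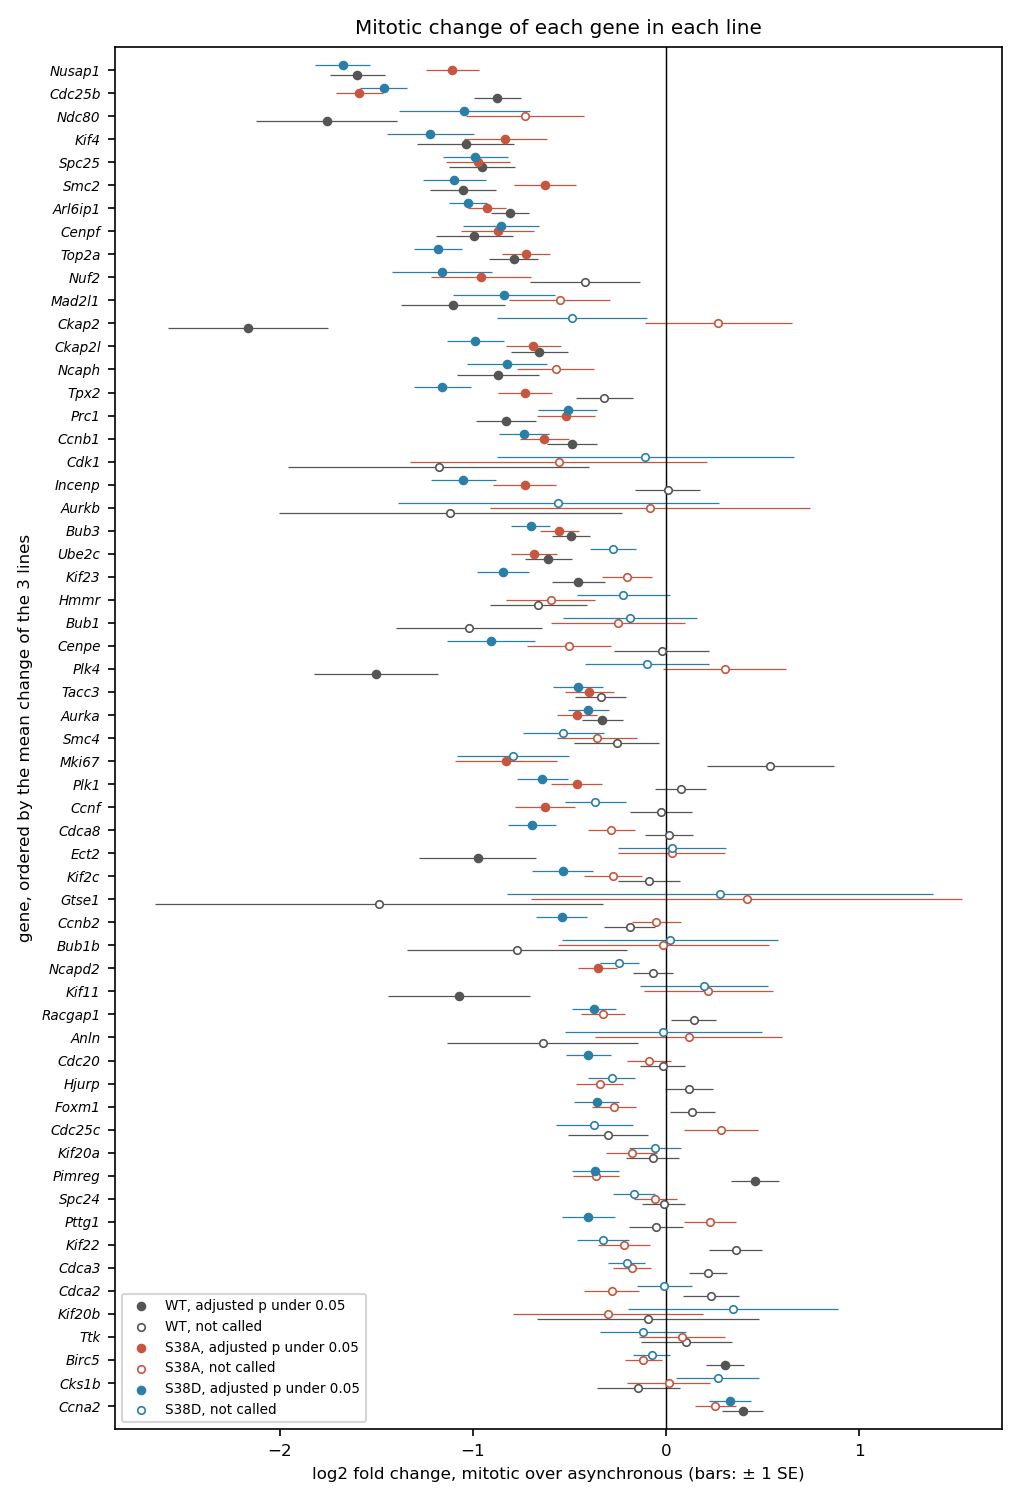
Log2 fold change of mitotic over asynchronous libraries for each of the 59 genes in WT (grey), S38A (red) and S38D (blue), with bars of 1 SE; filled points have an adjusted p under 0.05. Nusap1 and Cdc25b lie far to the left in all 3 lines, and for Ckap2, Plk4, Ect2 and Kif11 the WT point alone is filled.

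Most listed genes called between lines were higher in S38A. In asynchronous cells 32 of the 59 genes were higher in S38A than in WT and 1 was lower, against a background of 11.7% and 9.54%; the members' median difference was 0.42 and that of all genes -0.02. All 4 genes of the chromosomal passenger list (Incenp, Birc5, Cdca8 and Cdca2), 8 of 12 spindle genes and 4 of 7 kinetochore genes were called higher. So were 4 of 7 chromosome structure genes, 4 of 8 cyclins and activators, 3 of 5 kinases, 3 of 7 cytokinesis genes and 2 of 9 checkpoint genes. Aurkb, the kinase of the passenger complex, is counted with the kinases. It was not called, at 19.4 and 24.9 CPM in WT and 19.2 and 14.8 in S38A. Mki67 had 4.69 and 3.97 CPM in WT and 15.8 and 12.2 in S38A, a difference of 1.68 ± 0.30 (adjusted p = 0.00097). Incenp had 138 and 143 CPM against 422 and 438, a difference of 1.61 ± 0.17 (adjusted p = 2.31e-05). Tpx2 had 51.4 and 50.2 CPM against 110.0 and 107, a difference of 1.10 ± 0.14 (adjusted p = 7.45e-05). In all 3 the S38A libraries were above both WT libraries by more than either replicate gap.

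Cenpe, the kinetochore motor that carries chromosomes to the equator, had 10.8 and 9.07 CPM in WT and 17.6 and 18.97 in S38A, a difference of 0.87 ± 0.23 (adjusted p = 0.0126). Its call was lost without either WT asynchronous library (1.01, adjusted p = 0.0594 without replicate 1, and 0.80, adjusted p = 0.0827 without replicate 2) and without S38A asynchronous replicate 2 (0.85, adjusted p = 0.07). Spc24 had 149 and 168 CPM against 280.0 and 285, a difference of 0.84 ± 0.11 (adjusted p = 7.82e-05). Plk4 was the member that was lower, at 19.2 and 15.9 CPM in WT and 8.82 and 6.04 in S38A, a difference of -1.24 ± 0.31 (adjusted p = 0.0092). Without WT asynchronous replicate 1 its difference was -1.08 (adjusted p = 0.107), and without S38A asynchronous replicate 2 it was -0.96 (adjusted p = 0.122).

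The number of calls depended on scaling. Relative to the spike-in RNA all genes had a median difference of -0.47 and the members one of -0.03 (this scaling shifts all genes alike), with 3 members called higher and 2 lower. The count of 33 was 15 without WT asynchronous replicate 1, 21 without WT asynchronous replicate 2 and 20 without S38A asynchronous replicate 2. Hbb-bt also stood highest in S38A asynchronous cells, at 1185 and 1270 CPM against 784 and 799.8 in WT, and the B cell markers summed to 3611 and 3676 CPM there against 2613 and 2739 in WT; their part in the result was not tested. The G1/S cyclin and E2F genes differed in the same direction, with 12 of 20 higher and 0 lower.

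The higher level in S38A was present in mitotic libraries too. There 20 genes were higher than in WT and 0 lower (background 8.31% and 8.72%), with a median difference of 0.37 against 0.03 for all genes. Nusap1 had 36.6 and 31.4 CPM in WT mitotic and 77.6 and 76.4 in S38A mitotic libraries, a difference of 1.18 ± 0.14 (adjusted p = 4.58e-05). Kif23 had 46.9 and 38.4 CPM against 82.8 and 80.1, a difference of 0.93 ± 0.14 (adjusted p = 0.000212). Both genes were clearly apart, with S38A replicates close together. Incenp had 152 and 131 CPM against 236 and 281, a difference of 0.87 ± 0.17 (adjusted p = 0.00274). Smc2 had 16.2 and 14.9 CPM against 27.1 and 27.1, a difference of 0.80 ± 0.17 (adjusted p = 0.00404). Kif4 had 4.91 and 6.14 CPM against 9.58 and 10.99, a difference of 0.90 ± 0.25 (adjusted p = 0.0202). The groups did not overlap for any of the 3, but the Kif4 call was lost without WT mitotic replicate 1 (0.72, adjusted p = 0.191), without S38A mitotic replicate 1 (0.99, adjusted p = 0.0591) and without S38A mitotic replicate 2 (0.79, adjusted p = 0.152). The count of 20 was 10 without WT mitotic replicate 1, 9 and 10 without S38A mitotic replicates 1 and 2, 13 in DESeq2 and 11 with spike-in scaling.

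A set of 16 genes was higher in S38A than in WT in both states, 27.1% of the 59 against 4.58% of all genes tested: Ccnb2, Incenp, Cdca8, Bub3, Cdc20, Spc24, Tpx2, Nusap1, Tacc3, Ckap2l, Kif2c, Kif4, Arl6ip1, Kif23, Top2a and Ncapd2. The states use separate libraries. These calls rest on the TMM scaling. With spike-in scaling fewer members were called higher in either state, as given above, and this set was not counted under that scaling. Across the 59 genes the differences in the 2 states had a Pearson r of -0.12, against 0.52 over all genes tested. This r includes members whose replicates lay far apart, such as Gtse1 (2.27 and 21.9 CPM in WT mitotic libraries). It was not computed without them. Mki67 differed by 1.68 in asynchronous and by 0.31 in mitotic cells (adjusted p = 0.527 for the latter).

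**Figure D3:**
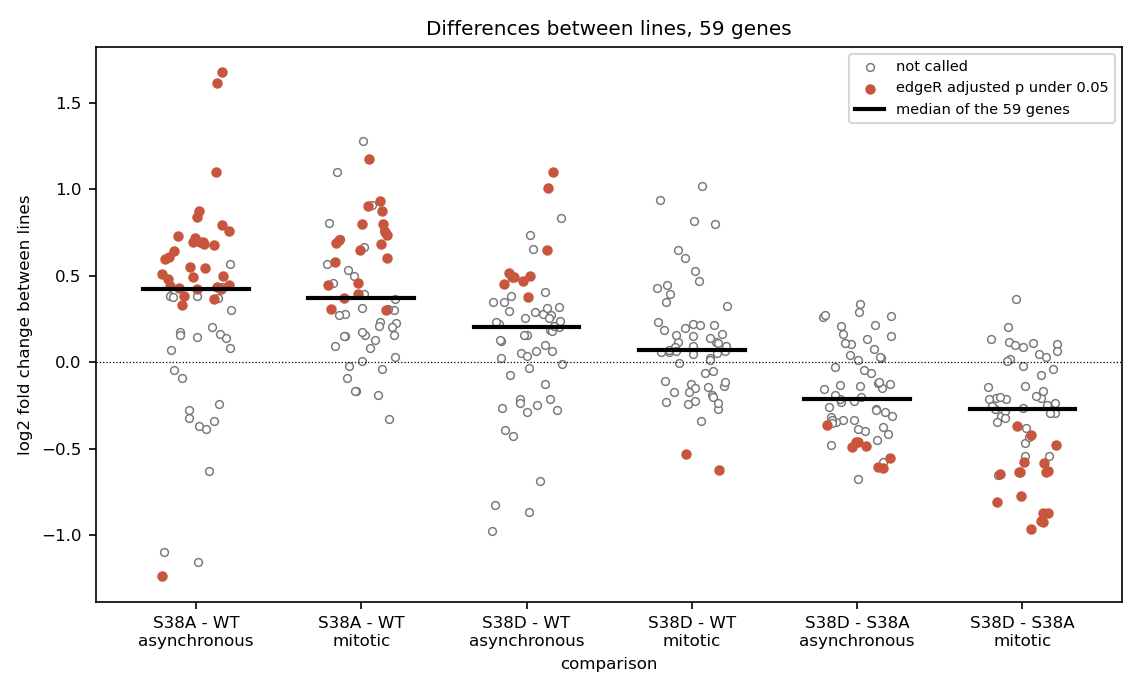
Log2 differences between lines for each of the 59 genes in 6 comparisons, spread sideways for clarity; filled points have an edgeR adjusted p under 0.05 and the bar is the median. The medians are 0.42, 0.37, 0.20, 0.07, -0.21 and -0.27 from left to right.

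S38D had fewer calls against WT. In asynchronous cells 10 genes were higher than in WT and 0 lower (background 4.87% and 4.12%), with a median difference of 0.20 while that of all genes lay near 0. They were Mki67 (1.10), Incenp (1.01), Tpx2 (0.65), Kif22 (0.51), Plk1 (0.49), Foxm1 (0.49), Birc5 (0.49), Cdca8 (0.47), Top2a (0.45) and Spc24 (0.37). Incenp had 342 and 222 CPM in S38D against 138 and 143 in WT (adjusted p = 0.00222). Mki67 had 11.3 and 7.42 CPM against 4.69 and 3.97 (adjusted p = 0.0358). Both S38D values were above both WT values, with a wide gap between the S38D replicates. Tpx2 had 91.5 and 67.7 CPM against 51.4 and 50.2 (adjusted p = 0.0113). Kif22 had 229 and 178 CPM against 139 and 146 (adjusted p = 0.0269). Plk1 had 1243 and 924 CPM against 714 and 824 (adjusted p = 0.0278). For these 3 genes the S38D replicates lay above WT, with replicate 1 the higher of the pair.

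These calls changed with the libraries used. The count of 10 was 1 without WT asynchronous replicate 1, 2 without WT asynchronous replicate 2, 5 without S38D asynchronous replicate 1 and 29 without S38D asynchronous replicate 2. Without S38D asynchronous replicate 1, Mki67 was at 0.77 (adjusted p = 0.27), Tpx2 at 0.43 (adjusted p = 0.0767), Kif22 at 0.34 (adjusted p = 0.129) and Plk1 at 0.28 (adjusted p = 0.146). None of these 4 was called without WT asynchronous replicate 1 or replicate 2 either, with adjusted p from 0.0703 to 0.282, and the Mki67 call was also lost without S38D mitotic replicate 2 (adjusted p = 0.0503). Fitted on only the groups compared, 0 were called, and with spike-in scaling 1 was higher and 1 lower, where all genes had a median of -0.38 and the members one of -0.18.

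In mitotic cells S38D had 0 genes higher than WT (background 1.15%) and 2 lower, or 3.39%, near the background of 3.41%. They were Pimreg, with 71.5 and 72.7 CPM against 119 and 103, a difference of -0.62 ± 0.12 (adjusted p = 0.00622), and Cdc25b, with 708 and 763 CPM against 1052 and 1076, a difference of -0.53 ± 0.12 (adjusted p = 0.0163). In both genes the 2 groups did not overlap. The Pimreg call was lost without WT mitotic replicate 1 (adjusted p = 0.09996) or either S38D mitotic replicate (0.0856 and 0.0715), and the Cdc25b call without any 1 of the 4 libraries (adjusted p from 0.0825 to 0.217). The count was 4 and 5 without S38D asynchronous replicates 1 and 2, 0 without WT mitotic replicate 1, 1 without WT mitotic replicate 2, and 0 without either S38D mitotic replicate. No member was called higher than WT in both states in S38D.

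Against S38A, S38D was lower for 8 genes in asynchronous cells and higher for 0 (background 3.89% and 3.32%). The 8 were Kif2c (-0.61), Incenp (-0.61), Ccnf (-0.56), Cdc25b (-0.49), Hjurp (-0.48), Cdc20 (-0.46), Spc24 (-0.46) and Ncapd2 (-0.36). Kif2c had 31.5 and 33.9 CPM in S38D against 51.5 and 48.6 in S38A (adjusted p = 0.0205). Ccnf had 55.7 and 51.6 CPM against 74.2 and 83.6 (adjusted p = 0.0405). Cdc25b had 2323 and 1731 CPM against 2888 and 2816 (adjusted p = 0.0196). The S38D libraries were below both S38A libraries in each. The count of 8 was 0 without S38A asynchronous replicate 1 or replicate 2, 5 without WT asynchronous replicate 1 or replicate 2 and 17 without S38D asynchronous replicate 1. It was 0 with spike-in scaling and 0 in a fit of only these groups. Without replicate 2 of S38D asynchronous cells Incenp was at -0.33 (adjusted p = 0.0671) and Ccnf at -0.50 (adjusted p = 0.0634). Without S38A asynchronous replicate 1 or replicate 2, Kif2c, Incenp, Ccnf and Cdc25b had adjusted p from 0.0983 to 0.279. Incenp and Ccnf also missed the threshold without either WT asynchronous library, Incenp without either S38D mitotic library and Ccnf without either S38A mitotic library, with adjusted p from 0.06 to 0.0695.

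In mitotic cells S38D was lower than S38A for 17 genes and higher for 0 (background 10.2% and 7.51%), with a median of -0.27 against -0.02 for all genes. Nusap1 had 42.02 and 36.96 CPM in S38D and 77.6 and 76.4 in S38A, a difference of -0.96 ± 0.14 (adjusted p = 0.00029). Incenp had 141 and 132 CPM against 236 and 281, a difference of -0.92 ± 0.17 (adjusted p = 0.00194). Kif23 had 45.7 and 40.4 CPM against 82.8 and 80.1, a difference of -0.92 ± 0.13 (adjusted p = 0.000277). In each the S38D and WT mitotic libraries stood near each other and both S38A libraries above them. Tpx2 had 36.2 and 35.1 CPM against 67.4 and 63.5, a difference of -0.87 ± 0.15 (adjusted p = 0.000761). The count of 17 was 10 and 11 without S38A mitotic replicates 1 and 2, 11 and 10 without S38D mitotic replicates 1 and 2, and 11 in DESeq2. Lower in both states were 6 genes, 10.2% of the 59 against 3.0% of all genes tested. The asynchronous calls behind this set were all lost with spike-in scaling and in a fit of only these groups, as given above. The set was thus absent in those settings.

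**Figure D4:**
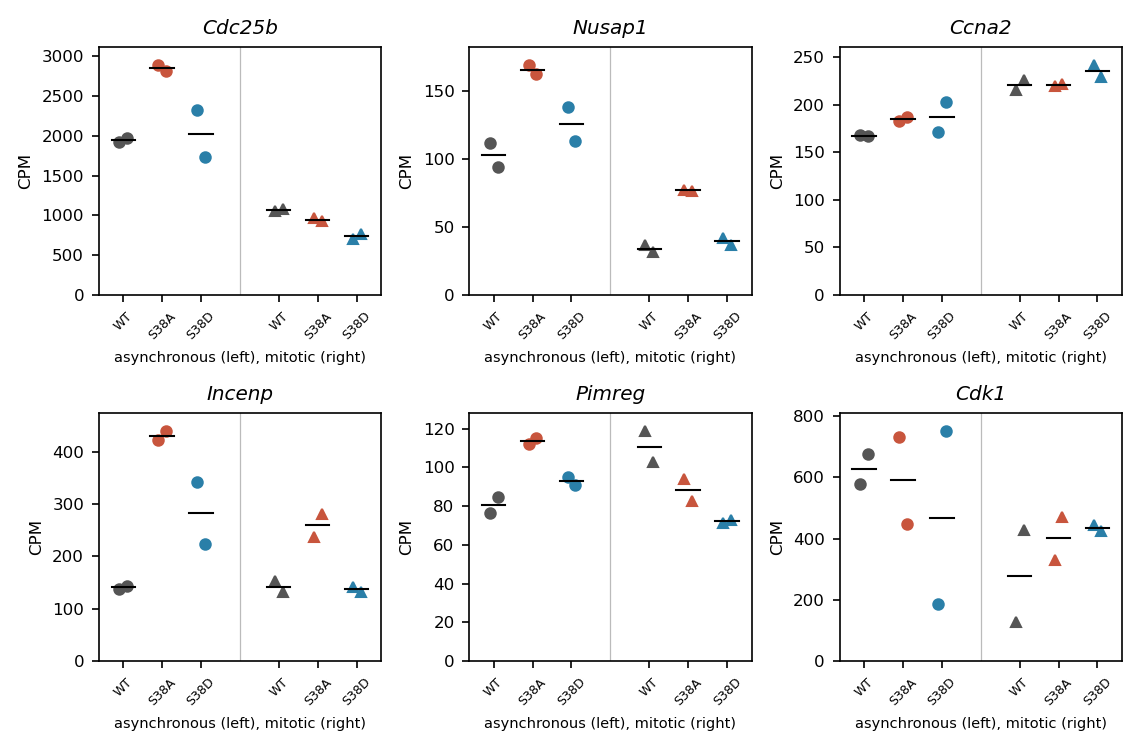
CPM of 6 genes in each library (circles asynchronous, triangles mitotic, bars the mean of 2 libraries) on axes that start at 0. Cdc25b and Nusap1 fall in every line, Ccna2 is higher in all mitotic libraries, Incenp is highest in S38A, Pimreg is higher in the mitotic libraries of WT and lower in those of S38A and S38D, and the replicates of Cdk1 lie far apart.

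Whether the mitotic change itself differed between lines was tested directly. For S38A against WT 1 of the 59 genes was called, Pimreg, and it was lower (background 0.496% in each direction). Pimreg had 76.7 and 84.5 CPM in WT asynchronous and 119 and 103 in WT mitotic libraries, so that both mitotic values were higher. In S38A it had 112 and 115 CPM in asynchronous and 94.01 and 82.4 in mitotic libraries, and in S38D 95.03 and 90.7 and then 71.5 and 72.7, with both mitotic values lower. Its mitotic change was 0.46 in WT and -0.36 in S38A, a difference of -0.82 ± 0.17 (adjusted p = 0.0336). With spike-in scaling the difference was -0.36 (adjusted p = 0.318), where all genes had a median of 0.46. The call was also lost without any 1 of 9 libraries, with adjusted p from 0.0586 to 0.236: either WT asynchronous, either S38A asynchronous, WT mitotic replicate 1, either S38A mitotic or either S38D mitotic library. The count of 1 was 0 without each of these, and was 14 and 16 without S38D asynchronous replicates 1 and 2, libraries outside this comparison that enter the shared estimate of spread. For S38D against WT 0 of the 59 were called by edgeR (background 0.143% higher and 0.258% lower), 20 had an unadjusted p under 0.05, and DESeq2 called 4. Without S38D asynchronous replicates 1 and 2 edgeR called 2 and 24. Apart from Pimreg, the genes named above for a different mitotic change in WT (Ckap2, Plk4, Incenp and Birc5) are therefore not shown to differ between lines.

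Replicates of some members lay far apart. Of the 51 members at a mean of 10 CPM or more, 6 were at least 2-fold lower in replicate 1 than in replicate 2 of S38D asynchronous cells: Cdk1, Aurkb, Bub1b, Ckap2, Gtse1 and Ect2. In WT mitotic cells 4 were, Cdk1, Aurkb, Bub1b and Gtse1, and in S38A mitotic cells Gtse1 was. The shares of members were 11.8% in S38D asynchronous and 7.84% in WT mitotic cells. Among 7062 genes at 10 CPM or more, 6.88% and 2.92% were at least 2-fold apart there, in either direction. In S38A mitotic cells 0.467% of those genes were. Wide gaps between these replicates were thus not confined to the members. Cdk1 had 187 and 751 CPM in S38D asynchronous replicates 1 and 2, and 128 and 429 in WT mitotic replicates. Aurkb had 5.57 and 37.8 CPM and 6.04 and 14.5 CPM in the same pairs. Gtse1 had 4.14 and 33.6 CPM and 2.27 and 21.9 CPM. In the other 3 groups 0 members were 2-fold apart. Cdk1, Aurkb, Bub1b and Gtse1 were not called in the mean mitotic change, nor was Ect2, while Ckap2 was. Over the last 300 bases of the transcript their GC content had a median of 37.4% (29.7 to 46.7%), against 42.3% (26.0 to 53.7%) in the other members, and the part of base composition was not tested. Across the 51 members GC content and the replicate difference had a Pearson r of 0.28 in S38D asynchronous and 0.17 in WT mitotic cells, against 0.37 and 0.21 over 7058 genes, all within the same library pairs.

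**Figure D5:**
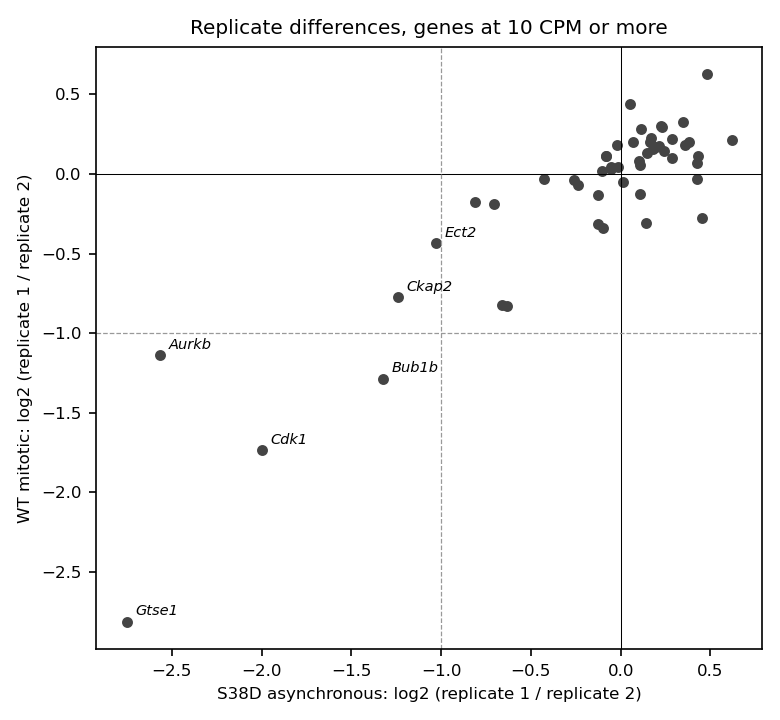
Log2 ratio of replicate 1 to replicate 2 for the 51 members at 10 CPM or more, in S38D asynchronous (x axis) and WT mitotic cells (y axis), with dashed lines at 2-fold. Most genes lie near 0 on both axes, and Gtse1, Cdk1, Aurkb and Bub1b lie beyond 2-fold on both.

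Without both of these replicates the members called in the S38A mitotic change numbered 34 in place of 22, those lower in S38D than in S38A numbered 21 in place of 8 in asynchronous and 27 in place of 17 in mitotic cells, and those with a different mitotic change in S38A numbered 10 in place of 1. The other counts of the members moved by less than 1.5 times.

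Other genes of the same machinery were set beside the members; these lists were written with earlier results known. Of 116 further mitotic genes tested 38 fell (32.8%) and 10 rose (8.62%) in mitotic libraries, with a median of -0.19, beside the 21.6% and 20.5% of all genes tested. Among other APC/C subunits and inhibitors 4 of 17 fell (23.5%, near that background) and 3 rose; Fzr1 (CDH1), the activator that takes over from CDC20, stood at -0.98 (adjusted p = 1.22e-07). Among entry and exit regulators 6 of 17 fell and 3 rose, with the kinase Nek7 at -0.71, the CDK1 inhibitor Wee1 at -0.48 and the phosphatase inhibitor Arpp19 at 0.43. Other kinetochore and centromere genes gave 9 lower and 1 higher of 31, with Cenph at -0.50 and Cenpw at 0.42. Among cohesin and condensin genes 7 of 14 fell and 0 rose, including the cohesin ATPase Smc1a (-0.85) and the condensin subunit Ncapg (-0.69). Other spindle and cytokinesis genes gave 10 lower and 2 higher of 27, with the midbody kinesin Kif14 at -0.51. Of MuvB, DREAM and partner genes 2 of 10 fell (20.0%, also near it) and 1 rose, with the MuvB subunit Lin37 at -0.68. G1/S genes, which peak earlier in the cycle, also fell, 10 of 20 with 1 higher: E2f2 (-0.72), the replication licensing factor Cdc6 (-0.65) and the ribonucleotide reductase subunit Rrm1 (-0.77). Lower levels in mitotic libraries were thus also found among G1/S mRNAs, at a share of calls that was not tested against the members.

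Between lines the 116 genes gave 23 higher and 5 lower in S38A than in WT in asynchronous cells (19.8% and 4.31%, beside 11.7% and 9.54% of all genes tested), and 18 higher and 3 lower in mitotic cells (15.5% and 2.59%, beside 8.31% and 8.72%). G1/S genes gave 12 and 10 higher of 20 and 0 lower in the 2 states. In mitotic cells S38D was lower than S38A for 12 of the 116, or 10.3%, near the background of 10.2%, and for 9 of the 20 G1/S genes; it was higher for 3 and 1. Against WT, S38D was higher for 6 of the 116 in asynchronous cells, or 5.17%, near the background of 4.87%, and for 0 in mitotic cells (background 1.15%).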

How the data were processed

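The authors deposited counts, whole numbers of reads per gene, in 1 file per library (51826 genes and 92 spike-ins), without normalization. Per the labels' protocols, total RNA from polysome-buffer lysates was mixed with spike-in RNA and made into QuantSeq 3′ libraries. Per the submitters' processing notes, bcl2fastq 2.16.0.10, cutadapt 1.12, STAR 2.5.3a and mm10 were used; how reads were assigned to genes (program, strand, annotation) is not given in the sources used here. Identifiers were matched to GENCODE M21 on GRCm38 (99.63%), with older symbols through RefSeq's gene table.

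The 60 members, their roles and the other lists were chosen with earlier results of these data known. Spike-ins stayed out of library sizes and tests. Genes were filtered with filterByExpr (minimum count 10), scaled by TMM and tested with edgeR 4.0.16 under R 4.3.3, using a model of 6 group means over all 12 libraries (6 residual degrees of freedom, median prior 9.95, common biological coefficient of variation 0.143), with robust quasi-likelihood F tests adjusted by Benjamini-Hochberg within each of 12 comparisons; the threshold for a call was an adjusted p of 0.05. The script was tested on simulated data. CPM are TMM-scaled, and SE is the fold change over the root of F. Values are given for 9 core genes whatever their change and for the called members with the largest changes in each comparison. They are ranges and medians per state for the mean mitotic change, and mostly values by library for the comparisons between lines. Other genes are named within their role, and Ckap2, Plk4, Birc5 and Gtse1 were singled out after their values were seen. So were Incenp and Pimreg for the mitotic change within single lines. Alternatives were DESeq2 1.42.0, its size factors within edgeR, spike-in scaling, no filter, the replicate block, only the groups compared, and libraries left out. Replicates 1 and 2 of a group differed beyond the 95% range of counting error for 13.9 to 44.6% of genes tested, so no pair was merged as 1 library; this does not show separate cultures. Amplified reads are not independent molecules, so depth bears on counting error only. Promoters are RefSeq's, on GRCm38.p6.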

Additional observations from a re-analysis of the deposited data

Results flagged for a closer look

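Pimreg was the 1 listed gene whose mitotic change differed between lines by a direct test, a difference of -0.82 on the log2 scale between S38A and WT (edgeR adjusted p = 0.0336). It had 76.7 and 84.5 CPM in WT asynchronous and 119 and 103 in WT mitotic libraries, both mitotic libraries above both asynchronous ones, and 112 and 115 against 94.01 and 82.4 in S38A, both below. The call was lost with spike-in scaling (-0.36, adjusted p = 0.318). It was also lost when most of the libraries were left out in turn, as given above. Groups of 2 libraries are too small for a test of outlying libraries.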

How the results depend on the processing

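The model had 6 residual degrees of freedom and 2 libraries a group. Counts of members called moved with the libraries used more than the directions of the called genes followed singly did. The genes followed singly were the core genes, the called members with the largest changes in each comparison, and some singled out after their values were seen. Most of their values concern the mitotic change, and the other members are not covered. Of these 1995 single-gene values under the alternatives, 1788 stayed on the same side of the threshold, 184 lost the call and 21 gained one. A further 2 that had been called reversed, both in WT with spike-in scaling: Ccna2 (-0.046, adjusted p = 0.849) and Birc5 (-0.14, adjusted p = 0.436). Changes of sign in values that were not called were not counted. Counting error is relatively largest for members with few reads, such as Mki67 and Ndc80, under 10 CPM in every mitotic library.

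With spike-in scaling, S38A against WT in asynchronous cells gave 5 calls in place of 33, S38D against WT 2 in place of 10, S38D against S38A 0 in place of 8, and S38A against WT in mitotic cells 11 in place of 20; the difference in mitotic change between S38A and WT gave 2, both higher, in place of 1 lower. DESeq2 gave 13 in place of 20 for S38A against WT and 11 in place of 17 for S38D against S38A in mitotic cells, and 2 and 4 for the differences in mitotic change of S38A and S38D from WT, in place of 1 and 0; DESeq2 size factors within edgeR gave 2 for the former. Without a filter S38D against WT gave 19 in asynchronous cells and 5 in mitotic cells, 3 of them higher in place of 0, and the differences in mitotic change gave 9 and 10. Fitted on only the groups compared, the S38D mitotic change gave 16 in place of 32, S38D against WT and against S38A in asynchronous cells gave 0 each, and the difference in mitotic change of S38A gave 14. Leaving out S38D asynchronous replicate 1 and WT mitotic replicate 1 together gave 34 for the S38A mitotic change, 21 and 27 for S38D against S38A in asynchronous and mitotic cells, and 10 for the difference in mitotic change of S38A. In the cases with no filter, 60 genes of the list were tested.

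With each library left out in turn, the members called ranged from 30 to 40 for the mean mitotic change, 13 to 31 in WT, 10 to 29 in S38A and 19 to 35 in S38D. For S38A against WT they ranged from 15 to 40 in asynchronous and 9 to 28 in mitotic cells, for S38D against WT from 1 to 29 and 0 to 5, and for S38D against S38A from 0 to 17 and 10 to 25. For the differences in mitotic change they ranged from 0 to 16 for S38A and 0 to 24 for S38D. The cause of these shifts was not tested, beyond the fewer samples in each fit.

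Replicate numbers did not pair the samples across all groups. Of 15 correlations of replicate differences between groups, over 7062 genes, 3 were above 0.1 and 3 below -0.1 (-0.40 to 0.79). The 3 above joined S38D asynchronous, WT mitotic and S38A mitotic cells to each other (0.55 to 0.79). The 3 below joined each of those groups to S38A asynchronous cells (-0.40 to -0.37). Replicate differences were thus partly shared between these groups, and the cause was not tested. With the replicate number as a block the mean mitotic change gave 36 members called in place of 34, and the differences in mitotic change gave 3 and 1 in place of 1 and 0; the block moved no other count of members by more than 1.5 times.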
